A study of Mus musculus with 11 samples.

Results

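Mest, Peg3, Peg10, Meg3, H19, Igf2, Nnat, Ndn, Snrpn and Plagl1 are imprinted genes with known expression in the brain or its linings, and their levels were followed through astrocytes of 4 brain regions. These 10 genes were chosen by name out of 24421 entries in each sample, with earlier results of these data known, among them that Mest was low in the cortex. The cells carried an eGFP reporter on a bacterial artificial chromosome under the Aldh1l1 promoter, which labels astrocytes, and eGFP+ cells were collected by FACS. All groups shared this transgene, the C57BL/6 strain and an age of 16 weeks, none received a treatment, and animals of both sexes were used. The groups were defined by the dissected region, with 3 samples of olfactory bulb (called OB), 3 of brainstem (BS), 3 of hippocampus (HC) and 2 of cortex (CX). The sources do not state the sex, the sort or the number of animals behind each sample. The p-values therefore measure the spread between these samples, which may be technical in part. Where a region was set against all others pooled, that spread also held the differences among those other regions.

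An imprinted gene is read mainly from the copy of 1 parent. DNA methylation at CpG dinucleotides, set in the egg or the sperm and kept in the cells of the offspring, tells the copies apart. Many imprinted genes act on growth, on placenta and on brain development, and Igf2 and Mest are also strongly read in tissues that line the brain, the choroid plexus and the meninges. The mice were inbred, so that reads from the maternal and the paternal copy could not be told apart and all values are sums over both. In bulk RNA of this kind, fewer cells of a type and less RNA per cell cannot be told apart either.

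The stretches before the starts of Mest and Plagl1, which together with Igf2 differed most between region means among the members above the filter on low counts, are shown first because CpG dinucleotides are the letters on which imprints are written. Each stretch is the 250 bases before a RefSeq start on GRCm38.p6, printed 5′ to 3′ on the gene's strand with every CpG in capitals, at chr6:30737800-30738049 on the + strand for Mest and at chr10:13090582-13090831 on the + strand for Plagl1.
Mest: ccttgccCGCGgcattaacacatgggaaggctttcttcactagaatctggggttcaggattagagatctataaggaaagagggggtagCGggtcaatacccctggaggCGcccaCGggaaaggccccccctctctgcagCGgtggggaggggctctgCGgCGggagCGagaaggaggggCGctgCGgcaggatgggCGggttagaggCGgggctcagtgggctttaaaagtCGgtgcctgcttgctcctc
Plagl1: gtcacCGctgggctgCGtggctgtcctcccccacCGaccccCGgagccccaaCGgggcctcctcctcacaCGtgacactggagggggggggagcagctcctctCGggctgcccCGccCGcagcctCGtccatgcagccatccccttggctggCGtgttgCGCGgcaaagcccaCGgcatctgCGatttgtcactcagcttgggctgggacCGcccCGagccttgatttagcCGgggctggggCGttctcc
The Mest stretch held 14 CpG dinucleotides, a number reached or passed by 29.4% of 32851 promoters of this length, and the Plagl1 stretch held 19, reached or passed by 19.7%. Over all promoters the median was 6. A second annotated Mest start, at chr6:30733256-30733505, had 7 CpG dinucleotides before it. Methylation was not measured, so these counts describe the sequence only.

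Promoters were listed for 8 members, with 17 starts between them, and the letters GCATGCG were then searched on both strands, a choice made after these sequences had been seen. GCATGCG was present before 5 of the 17 starts, which belonged to 3 members, Nnat, Ndn and Snrpn, and before 3.02% of all starts. As the letters were picked from these sequences, that share is no test of them. Several of the 5 were Snrpn starts with near-identical letters around the match, so they are not separate matches. Another Snrpn start, at chr7:60005200-60005449, had 0 matches. The match is in capitals below, with its copies on both strands overlapping. The windows are chr2:157559828-157560077 on the + strand for Nnat, chr7:62348027-62348276 on the + strand for Ndn and chr7:60140226-60140475 on the - strand for Snrpn.
Nnat: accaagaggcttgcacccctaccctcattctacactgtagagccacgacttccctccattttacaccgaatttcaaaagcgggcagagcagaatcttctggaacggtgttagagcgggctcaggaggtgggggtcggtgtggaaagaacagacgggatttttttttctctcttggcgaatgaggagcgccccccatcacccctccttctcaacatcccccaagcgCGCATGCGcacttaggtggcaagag
Ndn: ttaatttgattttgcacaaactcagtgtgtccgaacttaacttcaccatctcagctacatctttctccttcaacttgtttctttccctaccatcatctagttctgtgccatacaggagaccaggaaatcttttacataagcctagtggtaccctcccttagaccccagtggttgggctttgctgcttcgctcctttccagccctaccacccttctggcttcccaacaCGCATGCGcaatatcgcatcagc
Snrpn: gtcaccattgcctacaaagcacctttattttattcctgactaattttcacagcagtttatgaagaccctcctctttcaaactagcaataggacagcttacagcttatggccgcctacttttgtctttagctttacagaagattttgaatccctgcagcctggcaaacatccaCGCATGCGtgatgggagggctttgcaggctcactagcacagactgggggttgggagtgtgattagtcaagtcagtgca
The match is a description of these letters and not of a bound factor.

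Reads on genes numbered between 2830746 and 14151670 per sample, with a median of 5552215. The deposited value of a gene is its read count divided by 1 size factor per sample, and 3 reads, taken as the detection floor, were worth between 1.10 and 6.31. Values of the 10 astrocyte markers summed to between 122346 and 662322, and all 10 were detected in every sample. Markers of the choroid plexus, the secretory epithelium of the ventricles, stood apart between regions. Their sum over 15 genes lay between 2529 and 3074 in OB, 3456 and 8570 in CX, 107136 and 222359 in HC, and 78003 and 372265 in BS. In OB, 88.6% to 90.9% of this sum was Enpp2, an enzyme also made by oligodendrocytes, against 31.7% to 46.9% elsewhere. Ttr, the transthyretin gene that defines that epithelium, was at 5.39 to 16.6 in OB and at 1323 and 4204 in CX, and Folr1, Slc4a5 and Lmx1a, also defining genes, were at 0 reads in each OB sample. BS replicate 1 had the highest sum of all and also the highest value of Mest, Peg3, Peg10, Igf2 and Plagl1. Results that rest on it are therefore given with and without it.

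Mest, which codes for a membrane-bound protein of the hydrolase family and is read from the paternal copy, had its highest region mean in OB. It spans 30723547 to 30748465 on the + strand of chromosome 6. Its normalized value was 657, 584 and 583 in the OB samples, 394, 216 and 245 in HC, 67.8 and 49.1 in CX, and 1011, 214 and 305 in BS. Both CX samples lay below each of the other 9, while BS spanned the range from just below the lowest HC sample to above OB. Only 54 and 32 reads stood behind the CX values, against 107 to 1082 in the other regions. The mean of the 9 other samples was 8.0 times that of CX, and the mean log2(value + 1) in CX was lower by 2.80 log2 units (a log2 difference of -2.80). As the choice of Mest used its CX level, this is a description with no test.

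Between the other regions Mest was tested with limma. A gene was called at an unadjusted p under 0.01 and a fold change over 1.5, provided that 2 or more replicates of 1 region had a value over 5. The order of the region means was OB, BS, HC and CX, at 608 ± 42.4 (SD, n = 3), 510 ± 436 (SD, n = 3), 285 ± 95 (SD, n = 3) and 58.5 ± 13.3 (SD, n = 2). OB exceeded HC by 1.14 log2 units (SE 0.42, limma adjusted p = 0.133), which missed the call. The samples of these regions did not overlap, as was also so for 25.7% of all genes tested. OB and BS differed by 0.58 (limma adjusted p = 0.409) and HC and BS by -0.55 (limma adjusted p = 0.593), so that neither pair of neighbours in this order differed beyond the spread between samples. That spread was set in part by BS replicate 1, which had the highest Mest value, so that leaving it out lowers the BS mean by construction. Without it, OB exceeded BS by 1.24 (limma adjusted p = 0.00819), and the unchanged difference of 1.14 between OB and HC had an adjusted p of 0.00836 in limma. The HC minus BS difference then changed sign to 0.11 (limma adjusted p = 0.913), and the BS mean, at 260 over 2 samples, fell below that of HC. The OB–HC difference also passed without HC replicate 1, at 1.39 (limma adjusted p = 0.0988), and without BS replicate 2 (limma adjusted p = 0.0576). Over the 11 fits that each left out 1 sample, it ranged from 0.96 to 1.39 and missed the call in 8. Over the same fits the OB–BS difference ranged from 0.13 to 1.24 and missed the call in 10.

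**Figure D1:**
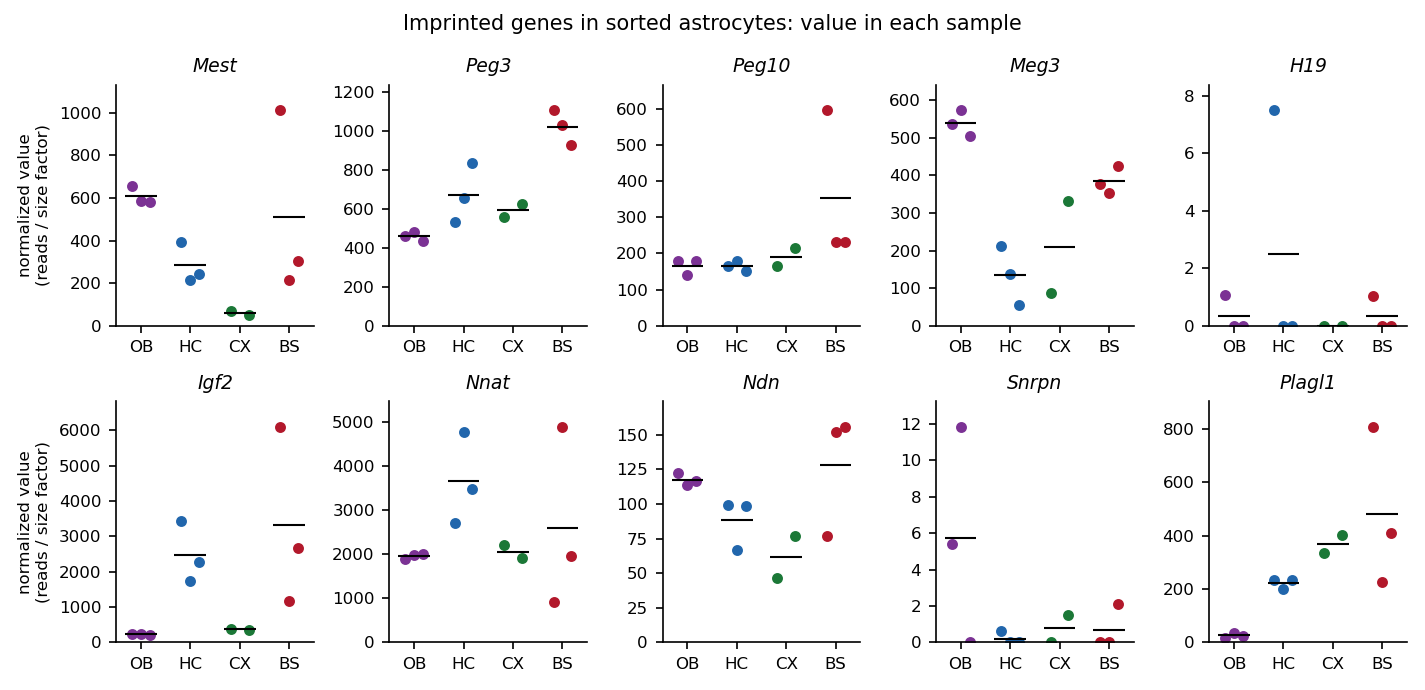
Normalized value (reads divided by the size factor, linear axes that start at 0 and differ between panels) of each imprinted gene in OB, HC, CX and BS. Each point is 1 sample and each line a region mean; both CX samples lie lowest for Mest, at 67.8 and 49.1, and the 3 OB samples lowest for Igf2 and Plagl1.

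Of the 10 members, 8 passed the filter on low counts, and H19 and Snrpn did not. Each comparison of a region with the rest shared its samples with the others, and Mest was left out of the counts wherever CX samples entered. Among all genes tested, samples did not overlap the rest in 8.17% for OB, 8.17% for CX and 7.89% for BS.

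In OB, 3 of the 7 other members tested were called, all lower, namely Igf2, Plagl1 and Peg3. Of the 13875 genes tested, 8.04% were called in either direction and 3.89% were called lower. The median log2 difference of the 7 members was -0.40, beside 0.02 over all genes. In HC, Meg3 was the single call, lower, against 1.28% of genes, and the median was 0.00 beside 0.02. In CX, 0 of the 7 were called by limma, edgeR or DESeq2, against 2.77% of genes, with 1 member, Ndn, at an unadjusted limma p under 0.05. The CX median was -0.24 beside -0.03. In BS, 2 were called, Peg3 and Peg10, both higher, against 9.03% of genes called in either direction and 3.98% called higher, and the median was 0.86 beside 0.02. Each of these shares is of few genes.

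**Figure D2:**
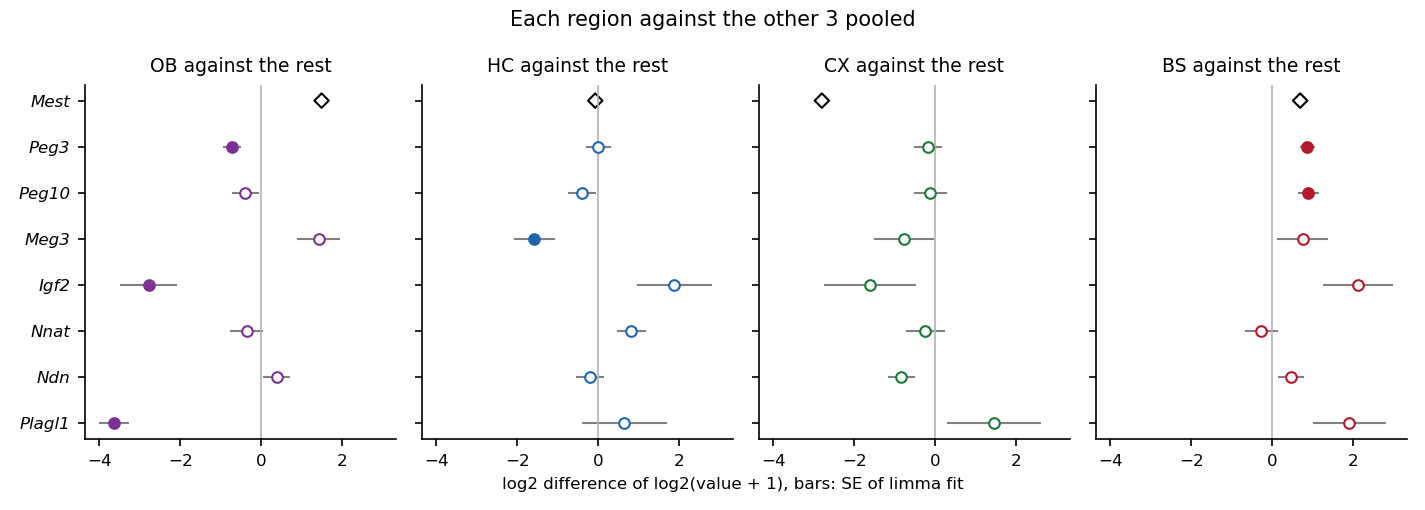
Difference in log2(value + 1) between each region and the samples of the other 3 regions pooled, with the SE of the limma fit as bars. Filled circles were called, open circles were not, and open diamonds mark Mest, which was not tested; Plagl1 in OB lies farthest from 0, at -3.63.

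Igf2, the paternally read growth factor that signals through the IGF1 and insulin receptors, had the widest regional contrast of the tested members after Plagl1. It lies on the - strand of chromosome 7 from 142650766 to 142666816. Its value was 229, 251 and 199.8 in OB, 3427, 1728 and 2261 in HC, 381 and 354 in CX, and 6095, 1170 and 2684 in BS. The 3 OB samples were below all others, CX came next, and HC and BS overlapped far above both. OB was lower than the rest by 2.78 log2 units (a log2 difference of -2.78, SE 0.71, limma adjusted p = 0.0380).

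In pairs, Igf2 was lower in OB than in HC, at -3.39 (limma adjusted p = 9.81e-05), and than in BS, at -3.56 (limma adjusted p = 3.16e-05). CX was also below BS, at -2.86 (limma adjusted p = 0.000946), and below HC, where the HC minus CX difference was 2.69 (limma adjusted p = 0.00883). OB and CX differed by -0.70 (SE 0.46, limma adjusted p = 0.514), and HC and BS by -0.17 (limma adjusted p = 0.902). The ligand was thus low in 2 regions and high in the other 2, in comparisons that share samples. BS against the rest was 2.12 (SE 0.86, limma adjusted p = 0.171), which missed the call, and 2.47 (limma adjusted p = 0.0603) without HC replicate 1, which passed it. Without BS replicate 1 it was 1.52 (limma adjusted p = 0.510). Fitted with a mean for each region, it was 2.20 (limma adjusted p = 0.00056) and was called.

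Plagl1, a zinc finger transcription factor known to act on other imprinted genes, was lowest in OB. The gene is on the + strand of chromosome 10 from 13060504 to 13131694. Its values were 17.4, 36.3 and 24.8 in OB, 235, 202 and 236 in HC, 334 and 403 in CX, and 808, 226 and 410 in BS. No OB sample came near the lowest sample elsewhere, and the mean of the rest was 13.6 times that of OB. The log2 difference was -3.63 (SE 0.37, limma adjusted p = 9.74e-05) against the rest.

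The deficit of Plagl1 in OB was -3.11 against HC (limma adjusted p = 8.71e-05), -3.82 against CX (limma adjusted p = 7.91e-05) and -4.02 against BS (limma adjusted p = 4.28e-06). Among HC, CX and BS no pair was called, the nearest being HC and BS at -0.91 (SE 0.37, limma adjusted p = 0.228), which edgeR and DESeq2 called by the same rule. BS against the rest was 1.90 (SE 0.91, limma adjusted p = 0.247), or 1.43 (limma adjusted p = 0.566) without BS replicate 1. Fitted with a mean for each region, it was 1.71 (limma adjusted p = 0.00188) and was called. Plagl1 and Igf2 were therefore both low in OB, but in CX Plagl1 was high where Igf2 was low.

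Peg3, a paternally read zinc finger protein that binds DNA and acts on growth and maternal behaviour, was highest in BS. It lies on the - strand of chromosome 7 from 6703892 to 6730431. Values were 463, 482 and 435 in OB, 531, 655 and 833 in HC, 560.3 and 627 in CX, and 1105, 1032 and 926 in BS. The 3 BS samples were above all others and the 3 OB samples below all others. BS exceeded the rest by 0.86 log2 units (SE 0.18, limma adjusted p = 0.0155). Without BS replicate 1 this difference was 0.80 (limma adjusted p = 0.0914), and it was still called by the unadjusted rule.

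OB was below the rest in Peg3 by 0.72 on the log2 scale (a difference of -0.72, SE 0.23, limma adjusted p = 0.0951), a call that held in 5 of 11 fits that each left out 1 sample. It was lost without any one of the OB replicates, HC replicate 3, BS replicate 2 or BS replicate 3, with differences between -0.75 and -0.65. The pairs that were called were OB and BS at -1.15 (limma adjusted p = 0.000436), CX and BS at -0.78 (limma adjusted p = 0.0203) and HC and BS at -0.62 (limma adjusted p = 0.0636). The CX–BS call was lost without CX replicate 1, at -0.70. Without BS replicate 1 the CX–BS difference was -0.72 (limma adjusted p = 0.0559), still called by the unadjusted rule. The HC–BS call was lost without HC replicate 1 (-0.46, limma adjusted p = 0.203), HC replicate 2 (-0.61, limma adjusted p = 0.164) or BS replicate 1 (-0.56, limma adjusted p = 0.154), and it was not made by edgeR.

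Peg10, a paternally read gene derived from a retrotransposon and needed in the placenta, also rose in BS. It lies from 4747306 to 4760517 on the + strand of chromosome 6. Its values were 180.3, 141 and 178 in OB, 166, 179 and 152 in HC, 165 and 216 in CX, and 595, 230.4 and 231.5 in BS. All BS samples exceeded all others, 2 of them narrowly. The log2 difference of BS from the rest was 0.89 (SE 0.26, limma adjusted p = 0.0599) and fell to 0.43 (limma adjusted p = 0.324) without BS replicate 1, which ended the call. The same replicate carried the pair differences of -0.93 with OB (limma adjusted p = 0.0564) and -0.93 with HC (limma adjusted p = 0.119), both -0.48 without it. These pair calls held in 2 of 11 fits that each left out 1 sample.

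Nnat, a small proteolipid of neuronal and glial membranes, had the highest level of the members per length of exon. Averaged over all samples it reached 1428 per kb of exon, against 298 for Igf2 and 99.7 for Mest on the same scale. It lies at 157560078 to 157562522 on the + strand of chromosome 2, inside an intron of Blcap. Values were 1897, 1986 and 2012 in OB, 2697, 4777 and 3487 in HC, 2202 and 1917 in CX, and 908, 4884 and 1962 in BS. The BS samples alone spanned both ends of the range, with BS replicate 1 lowest of all 11. No comparison was called for Nnat, and HC lay above the rest by 0.81 (SE 0.36, limma adjusted p = 0.864). Without BS replicate 2 that difference was 1.00 and passed the unadjusted rule (limma adjusted p = 0.668).

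Ndn, a MAGE family protein that restrains growth in neurons and is lost in Prader-Willi syndrome, was measured at low levels throughout. It lies from 62346569 to 62350262 on the + strand of chromosome 7. Its values were 123, 114 and 116 in OB, 99.3, 66.7 and 98.7 in HC, 46.5 and 76.7 in CX, and 76.7, 152 and 156 in BS. The upper CX sample lay within the HC range and just below the lowest BS sample. CX differed from the rest by -0.84 (SE 0.33, unadjusted p = 0.0245 and adjusted p = 0.413 in limma), and no comparison of Ndn was called.

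Snrpn, a splicing protein gene of the same imprinted region, was close to the detection floor. Its 23 reads fell into 5 samples, with values of 5.43 and 11.8 in OB replicates 1 and 2 and 0.625, 1.53 and 2.10 in HC replicate 1, CX replicate 2 and BS replicate 3. In the other 6 samples it was at 0 reads. OB against the rest gave an exact two-sided permutation p of 0.0545 (0.436 after adjustment over 8 such tests). In the GENCODE annotation of GRCm38, 216 of 2159 exon bases of Snrpn are shared with Snurf, which was listed at 0 in all samples, and how reads on shared exons were handled is not stated.

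Meg3, a long noncoding RNA read from the maternal copy, was highest in OB and lowest in HC. It spans 109541001 to 109571726 on the + strand of chromosome 12. Its values were 537.5, 573 and 506 in OB, 214, 137 and 56.5 in HC, 86.7 and 331 in CX, and 377, 353 and 425 in BS. The OB samples lay above all others, and HC and CX overlapped at the low end. OB exceeded HC by 2.17 log2 units (SE 0.44, limma adjusted p = 0.00605), the firmest difference of this gene. Against the rest OB was higher by 1.41 (SE 0.53, limma adjusted p = 0.172), which missed the call. That comparison passed with a mean for each region (1.44, limma adjusted p = 0.0212) and without BS replicate 3 (1.57, limma adjusted p = 0.130).

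HC was below the rest in Meg3, at -1.58 (SE 0.51, unadjusted p = 0.00850 and adjusted p = 0.688 in limma), a call that held in 2 of 11 fits that each left out 1 sample and ranged from -2.00 to -1.05. It was kept only without HC replicate 1 or CX replicate 1. HC was below BS by -1.69 (limma adjusted p = 0.0412), or -1.16 (limma adjusted p = 0.169) without HC replicate 3. Without BS replicate 1 the HC–BS difference was -1.70 (limma adjusted p = 0.0837). OB exceeded CX by 1.66 (limma adjusted p = 0.0726), which dropped to 0.70 (limma adjusted p = 0.715) without CX replicate 1 and was also lost without OB replicate 1 or 2 and with edgeR.

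H19, the maternally read noncoding RNA next to Igf2, was not detectable in most samples. It had 14 reads in all, 12 of them in HC replicate 1 at a value of 7.50, with 1 read each in OB replicate 1 and BS replicate 1. In the other 8 samples 0 reads were counted, which allows up to 3 reads. The smallest of its 4 exact two-sided permutation p-values was 0.273, for HC. Igf2, read from the other parental copy of the same region, had 22633 reads in the same samples.

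Beside these differences, the marker levels of other cell types were set. Outside OB, Igf2 and Mest put the 8 samples in an identical order, from BS replicate 1 through HC replicate 1, BS replicate 3, HC replicate 3, HC replicate 2 and BS replicate 2 to CX replicates 1 and 2. The choroid plexus sum differed from that order only in exchanging BS replicate 3 and HC replicate 3. In OB, where that sum was lowest, Igf2 was lowest too, while Mest was at 583 to 657. Plagl1 was at 334 and 403 in CX, where the choroid plexus sum was 8570 and 3456. The part of choroid plexus RNA in these differences was not tested.

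Other lists moved with Peg3, Peg10 and Meg3. The sum of 9 oligodendrocyte markers, all detected in every sample, was 10751 to 16935 in OB, 18917 to 39914 in HC, 19480 and 20901 in CX, and 52307 to 89397 in BS, so that it was lowest in OB and highest in BS, as was Peg3. Of the 10 marker lists it had the highest Spearman correlation with Peg3 (0.80) and with Peg10 (0.65) over the 11 samples. Other lists came close, namely the ependymal (0.75) and choroid plexus (0.71) lists for Peg3 and the endothelial (0.61) and neuronal (0.59) lists for Peg10. The oligodendrocyte list was also correlated with Igf2 (0.78) and Plagl1 (0.65), so this was not particular to Peg3 and Peg10. The 8 neuroblast markers, of which 7 or 8 were detected in OB samples and 3 to 7 elsewhere, summed to 675 to 1065 in OB, where Meg3 was highest, and to 117 to 432 in the other regions, with a Spearman correlation of 0.69 with Meg3. The corresponding value for the meningeal list was 0.75 and for the astrocyte list -0.72. The part of oligodendrocyte, neuroblast or meningeal RNA in the levels of these genes was not tested.

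The sum of 16 meningeal and perivascular fibroblast markers ran from 2330 to 2555 in OB, 831 to 2054 in HC, 394 and 649 in CX, and 1166 to 3259 in BS. Over all 11 samples its Spearman correlation with Mest was 0.94, the highest among the 10 marker lists, a description over samples that share regions and depths. In OB, however, 59.3% to 67.1% of that sum came from Islr, against 2.28% to 11.8% elsewhere, and Alx4 stood at 189 to 203. The collagen genes Col1a1, Col1a2 and Col3a1 together reached 81.4 to 159 in OB and 341 to 818 in BS. Without Islr the correlation was 0.51. The astrocyte sum moved the other way, at 248200 to 298664 in OB, 285361 to 482195 in HC, 584989 and 662322 in CX, and 122346 to 331092 in BS, and its correlation with Mest was -0.85, the lowest of the 10 lists. Much of the astrocyte sum was Slc1a2, at 541892 and 472464 in CX and at 61764 in BS replicate 1. Aldh1l1, whose promoter drove the reporter, did not follow the sum closely. It was at 943 to 974 in OB, 542 to 916 in HC, 1317 and 1043 in CX, and 623 to 1256 in BS. The sum is therefore no measure of the astrocyte share. The part of meningeal RNA, or of the astrocyte share, in the level of Mest was not tested.

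**Figure D3:**
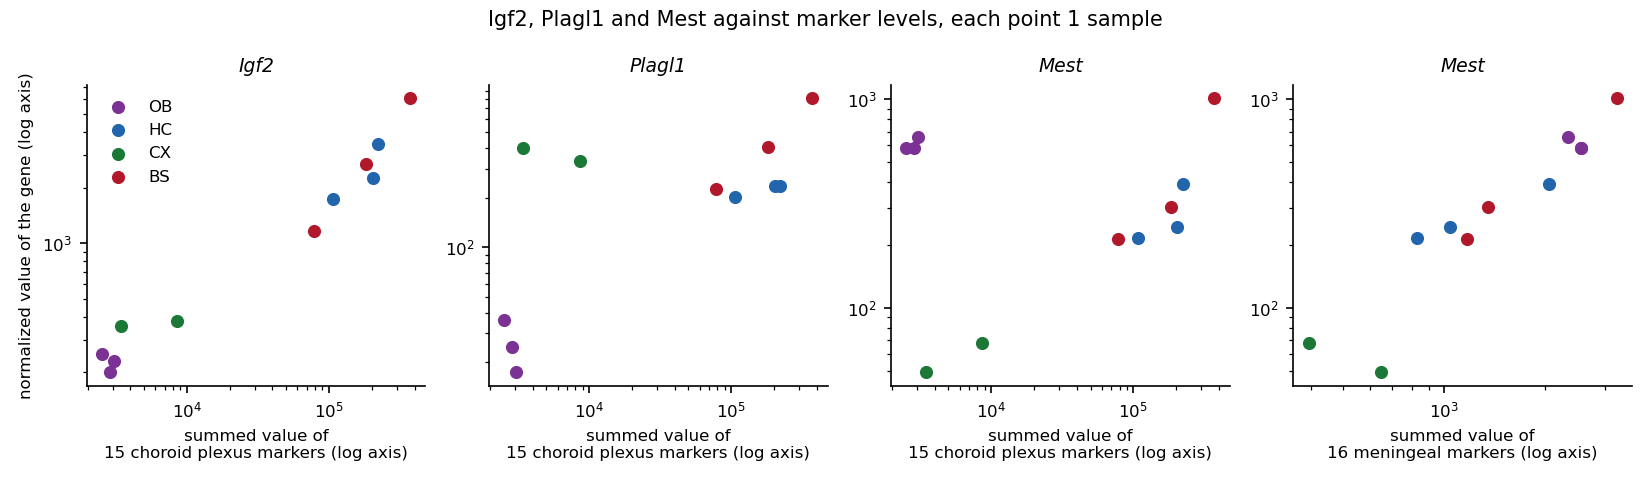
Normalized value of Igf2, Plagl1 and Mest against the summed value of 15 choroid plexus markers, and of Mest against 16 meningeal markers, on log axes, with 1 point per sample coloured by region. Igf2 is low in OB and CX, where the choroid plexus sum is low, and high in HC and BS, Plagl1 is high in CX at a low sum, and Mest is at 583 to 657 in OB where the choroid plexus sum is between 2529 and 3074.

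Genes whose pattern over the 11 samples was most like that of a member were ranked by Pearson's r of log2(value + 1) among 11285 genes. For Mest these were Nktr (r = 0.97), Mrc2 (0.96), Spata13 (0.96), Ppm1e (0.94) and Cobll1 (0.94). Mrc2, a collagen receptor, was at 10.1 and 12.3 in CX and at 93.6 in BS replicate 1. For Igf2 they were Pqlc3 (0.99), Tbc1d9 (0.99) and Strip2 (0.98), and for Plagl1 Ppp1r1b (0.95), Parva (0.95) and Ywhag (0.95). Peg3 ranked with Rnf14 (0.97), Vamp1 (0.95) and Odf2l (0.94), and Peg10 with Fam69b (0.93), Trip12 (0.91) and Fbxl7 (0.90). Meg3 ranked with Vav2 (0.95), Bnc2 (0.95) and Kcnq1ot1 (0.94), the last an imprinted noncoding RNA itself. Nnat ranked with Sp1 (0.92), Heca (0.91) and Rab33b (0.90), and Ndn with Zswim5 (0.89), Alox12 (0.88) and Uxs1 (0.87). Members were left out of this ranking, and r between members lay between -0.57, for Peg10 and Nnat, and 0.76, for Peg3 and Plagl1.

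The Mest gene overlaps Copg2 on the opposite strand, with 912 shared exon bases or 23.1% of the exon bases of Mest, and the strand setting of the counting is not stated. Copg2, a coat protein gene that is itself imprinted in part, had values between 310.4 and 518 with no call in any comparison, whereas Mest ranged from 49.1 to 1011. Reads of the 2 genes on the shared bases cannot be told apart without strand. Igf2 likewise shares 62.8% of its exon bases with a read-through gene model, Gm49394, that was not used here.

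A wider list of 71 imprinted genes, none of them a member, was described in the same way, and 51 of them were tested. In OB 11 were called, 5 higher and 6 lower, against 8.04% of all genes. Cdkn1c, a maternally read inhibitor of the cell cycle, had values of 13, 0.789 and 16.7 in OB, 455, 134 and 216 in HC, 33.9 and 13.8 in CX, and 496, 152 and 383 in BS. Its log2 difference in OB was -4.25 (SE 1.01, limma adjusted p = 0.0272), and in its values OB and CX were low while HC and BS were high, as with Igf2. Th, the rate-limiting enzyme of dopamine synthesis, was called in the other direction with values of 26.1, 66.3 and 13.5 in OB. It passed the filter only through OB and had 0 reads in 6 of the 8 other samples, so its fitted difference depends on the pseudocount and is not given. Th is still counted among the 5 called higher, where its call is no support for a difference. Qpct, an enzyme that forms pyroglutamate at protein ends, was higher in OB by 3.23 (SE 0.61, limma adjusted p = 0.00687). The medians over the list were 0.01 in OB, -0.04 in HC, -0.29 in CX and 0.25 in BS, beside 0.02, 0.02, -0.03 and 0.02 over all genes.

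In BS 6 genes of the wider list were called, 4 higher and 2 lower, against 9.03%. Dlk1, a paternally read Notch ligand relative from the same imprinted cluster as Meg3, had values of 82.0, 112 and 58.9 in BS and at most 22.8 elsewhere. The log2 difference of Dlk1 was 3.09 (SE 0.58, limma adjusted p = 0.00704), while that of Meg3 in BS was 0.74 (SE 0.62, limma adjusted p = 0.538). Pon3 rose by 1.84 (limma adjusted p = 0.0384) and Zdbf2 by 1.70 (limma adjusted p = 0.0116). In CX 2 were called against 2.77%, both lower. Dcn, a matrix proteoglycan of fibroblasts, was at 2.51 and 53.7 in CX and at 1667 in BS replicate 1, and differed by -3.69 (SE 1.04, limma adjusted p = 0.276). The other was Grb10, an adaptor that binds the insulin and IGF receptors, at -2.17 (SE 0.71, limma adjusted p = 0.347). Neither was called by edgeR, which called 0 of the list in CX. In HC 0 were called by limma, against 1.28% of all genes, with 2 at an unadjusted p under 0.05, 0 called by edgeR and 1 by DESeq2.

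**Figure D4:**
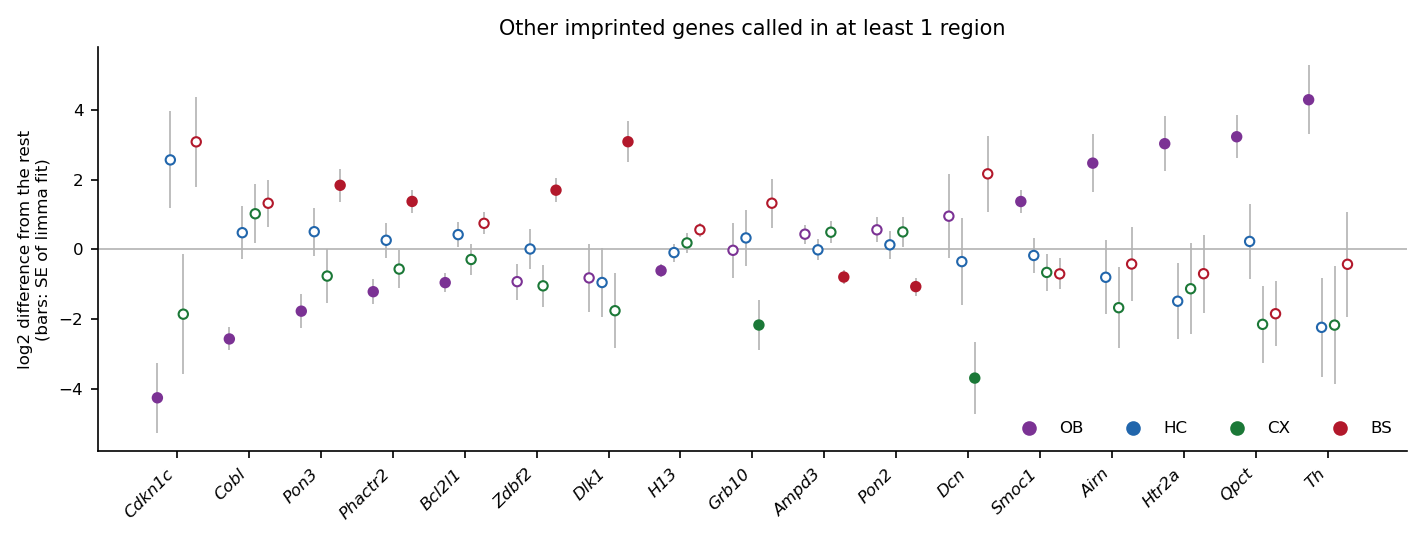
Difference in log2(value + 1) between each region and the pooled rest for the genes of the wider imprinted list called in at least 1 region, ordered by their OB difference, with the SE of the limma fit as bars. Filled circles were called. Cdkn1c lies lowest in OB at -4.25, and Dlk1 lies highest in BS at 3.09. Th lies highest in OB, but it passed the filter only through OB and had 0 reads in 6 of the 8 samples outside OB.

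Pairs of region means complete the picture for the members. Of the 8 members tested, 3 were called between OB and HC (9.92% of genes), 4 between OB and BS (15.9%) and 3 between HC and BS (7.6%). Of the 7 tested other than Mest, 2 were called between OB and CX (8.07%), 1 between HC and CX (4.69%) and 2 between CX and BS (13.5%). The 4 called between OB and BS, Igf2, Plagl1, Peg3 and Peg10, were all lower in OB. The 3 called between HC and BS, Meg3, Peg3 and Peg10, were all lower in HC. Igf2 was the single member called between HC and CX.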

How the data were processed

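RNA was extracted from sorted eGFP+ cells, and libraries were made from 5 ng of total RNA with depletion of ribosomal RNA. The authors aligned reads with STAR 2.5.0a to mm10 and divided gene counts by DESeq2 1.20.0 size factors, per the labels. The deposited unit is this normalized signal, and whether animals were pooled for a sample is not stated. All non-zero values (100%) were whole multiples of 1 step per sample within 0.01, so whole reads were recovered.

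The main test was limma 3.58.1 (R 4.3.3), two-sided with a mean-variance trend, on log2(value + 1) for genes that passed filterByExpr of edgeR 4.0.16 on recovered reads. A region was set against the other samples pooled, or region means were compared in pairs. Adjusted p-values follow Benjamini and Hochberg over all 13875 genes. H19 and Snrpn, below the filter, had exact permutation tests. Alternatives were edgeR, DESeq2 1.42.0, TMM rescaling, pseudocounts of 5 and 0.25, no filter, a mean for each region, adjusted p under 0.05, leaving out each sample, and the replicate number as a block. The fit was tested on simulated data. Gene spans are from GENCODE for GRCm38, promoters from RefSeq, and a level per kb divides a value by the kb of exon in the annotation.

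The members and the gene lists were chosen with earlier results of these data known. Named genes were all members, the called genes with the 3 largest differences per region in each other list, and the 3 genes (5 for Mest) most correlated with each member among genes with a mean value of at least 20. Python 3.11.15, numpy 2.4.6, pandas 2.3.3, scipy 1.17.1 and matplotlib 3.10.9 were used.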

Additional observations from a re-analysis of the deposited data

How the results depend on the processing

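No difference of a member reversed its direction under a setting in which it was called. Under every setting run, Igf2 and Plagl1 kept the calls made for OB against the rest and in the pairs with OB. Counts of called members that moved by more than 1.5 times are as follows. With a mean for each region, 2 were called in HC, 2 in CX (Igf2 and Plagl1) and 4 in BS. The additions were Igf2 and Plagl1 in BS and Igf2 in HC. Over all genes this setting called 666 in HC, 1071 in CX and 1960 in BS, against 178, 384 and 1253 in the main test. With adjusted p under 0.05 in place of the rule, 0 were called in HC, 1 in BS, 1 between OB and CX and 1 between HC and BS. Of all 13875 genes 0 passed this in HC, so the member count there says nothing about the members. The shares of all genes were 5.42% in BS, 4.91% between OB and CX and 4.63% between HC and BS. With edgeR 1 was called between OB and CX, beside 1032 of all genes, and with TMM rescaling 1 between HC and BS, beside 1066. With a replicate block 0 were called in HC, beside 149 of all genes. Smaller moves with that block were 2 in place of 3 in OB and 4 in place of 3 between OB and HC, where Mest was added at 1.14 (limma adjusted p = 0.0388). Of 15 same-numbered pairs of samples, 3 had deviations from the region mean correlated above 0.1 (range -0.16 to 0.25). Pairs with different numbers were not compared, and each mean is of 2 or 3 samples. Whether the replicate numbers pair the samples can therefore not be told.

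Leaving out each sample in turn, the called members numbered 2 to 3 in OB, 0 to 1 in HC, 0 to 0 in CX and 1 to 3 in BS. Between pairs they numbered 3 to 5 for OB and HC, 1 to 3 for OB and CX, 3 to 4 for OB and BS, 1 to 1 for HC and CX, 1 to 5 for HC and BS and 1 to 4 for CX and BS. The extremes were 5 for OB and HC without HC replicate 1, BS replicate 1 or BS replicate 2, 1 for HC and BS without any one HC replicate or BS replicate 1 and 5 without BS replicate 2, and 1 for CX and BS without CX replicate 1 and 4 without CX replicate 2. Fits without a CX sample rest on a lone CX sample, assumed to vary like the other regions. The wider imprinted list was recounted under the same settings, a choice made after seeing the data. It gave 6 calls in OB and 0 in CX with adjusted p under 0.05, 1 in HC with DESeq2, 0 in CX with edgeR, 1 in CX with a pseudocount of 5, and 1 in HC, 4 in CX and 12 in BS with a mean for each region. Without 1 sample it gave 4 to 11 in OB, 0 to 1 in HC, 0 to 2 in CX and 4 to 8 in BS, with the 4 in OB found without OB replicate 2 and the 0 in CX without CX replicate 1. Over all genes, adjusted p under 0.05 was met by 4.58% in OB and 0.0144% in CX, so 0 calls in CX is near that share. The causes were not tested. The exact tests of H19 and Snrpn were not rerun. H19 and Snrpn had few reads, so small differences in them were not detectable.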

Other observations

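Other genes of insulin-like growth factor signalling did not all follow Igf2 in OB, and no set test was run. Of 15 other genes of this pathway 12 were tested, and in OB 2 were called higher and 1 lower, against 8.04% of all genes. Igf1, the other main ligand of the IGF1 receptor, had values of 386, 532 and 457 in OB and between 28 and 88.3 elsewhere, where Igf2 was lowest in OB. Its log2 difference in OB was 3.02 (SE 0.31, limma adjusted p = 0.000108). Igf1r, the receptor, was lower in OB, at -0.79 (SE 0.17, limma adjusted p = 0.0178). Igfbp5, which binds both ligands outside the cell, was at 4486, 5074 and 4961 in OB and at 1681, 2029 and 1189 in BS. It was higher in OB by 1.05 (SE 0.32, limma adjusted p = 0.0906) and lower in BS, at -1.15 (SE 0.29, limma adjusted p = 0.0343), the single call of this list in BS against 9.03%. In HC and CX the list had 0 calls by limma, edgeR and DESeq2, with 0 and 2 genes at an unadjusted limma p under 0.05. Over all genes limma called 1.28% in HC and 2.77% in CX. The median log2 difference of the list was 0.16 in OB, 0.04 in HC, -0.50 in CX and 0.29 in BS. Over all genes these medians were 0.02, 0.02, -0.03 and 0.02. Igf2 itself differed by -2.78, 1.88, -1.62 and 2.12, opposite in sign to the list median in OB only.

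Of 21 factors that set, keep or read DNA methylation at imprints, such as Dnmt1, Trim28 and Ctcf, 18 were tested. None was called against the rest by limma, edgeR or DESeq2, with 1 at an unadjusted limma p under 0.05 in OB, 0 in HC, 0 in CX and 1 in BS. Limma called 8.04% of all genes in OB, 1.28% in HC, 2.77% in CX and 9.03% in BS. With 18 genes, 0 calls is near these shares. The median log2 difference of the list was 0.07 in OB, 0.00 in HC, 0.09 in CX and -0.17 in BS, beside 0.02, 0.02, -0.03 and 0.02 over all genes.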
